A study of Mus musculus with 2 samples.

Results

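Complement regulators are the proteins that hold the complement cascade in check, and 7 of their genes were followed: Serping1, Cfi, Clu, Vtn, Cd55, Cr1l and Cd59a. They were chosen by gene symbol, or an older synonym, on the array, and all 7 of 7 were found among the 16390 genes with a probe, each with 1 probe; that of Cr1l is listed under its older name Crry. Hearts came from male C57BL/6J mice aged 6 months, which had either fed freely (ad libitum, AL) or been held to caloric restriction by 40% (CR) for 3 months. There were 4 groups of 1 heart each: cardiomyocyte-specific Sirt1 knockout under CR, the same knockout under AL, control under CR and control under AL. The promoter that drove the deletion is not given in the sources used here, and cells of the heart other than cardiomyocytes keep Sirt1 in such a model. RNA of each CR heart (Cy3) was hybridised with RNA of the AL heart of the same genotype (Cy5) on 1 of 2 two-colour arrays, and the dyes were not swapped. Each genotype was therefore read on its own array and each diet in its own dye. Effects of genotype and array cannot be told apart, nor can those of diet and dye. Each condition also rests on 1 heart, so no value has a replicate check and no test was possible. Every difference describes these 4 hearts as measured on these 2 arrays.

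Complement is a chain of plasma proteases that marks surfaces with fragments of C3 and ends in a pore, the membrane attack complex. Serping1 (C1 inhibitor) blocks the proteases that start the classical and lectin pathways, and factor I (Cfi) cleaves C3b and C4b with the help of cofactors. Vitronectin (Vtn) and clusterin (Clu) keep soluble terminal complexes from inserting into membranes, and clusterin is also an extracellular chaperone. On the cell surface Cd55 speeds the decay of the C3 convertases, Cr1l (Crry), a regulator of rodents, does this and also acts as a cofactor of factor I, and Cd59a blocks the assembly of the pore. Most of these proteins circulate from the liver, and several are also made within tissues.

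The arrays detected 74.0% and 77.6% of 23474 probe spots in the knockout CR and AL hearts, and 77.8% and 80.7% in the control CR and AL hearts, where a spot counted as detected if it exceeded the trimmed mean of 2736 blank spots by 2 SD. For the Sirt1 probe the log2 signal under CR was 7.51 with the knockout and 7.53 in the control, and under AL 7.07 with the knockout and 7.11 in the control. The place of its probe relative to the deleted part is not known here, so the value does not check the genotype. Tnnt2, Tnni3 and Myl2, sarcomere proteins that define cardiac muscle, had log2 signals of 14.84 to 16.07 in the 4 hearts. The atrial light chains Myl7 and Myl4 were lower in the knockout hearts by log2 differences of -4.06 and -2.71 under CR and -3.95 and -2.47 under AL, whereas Nppa, the atrial natriuretic peptide, was higher by 1.95 under CR and 0.99 under AL. Of the other 3 genes of the 6 in the atrial list, Nr2f2 was at 0.12 and 0.13 and Bmp10 at -0.06 and -0.005 under CR and AL, and Sln was not detected in all hearts. The part of these genes' differences in the values below was not tested. A pair of positive control sequences, printed on 24 spots per array, gave SDs of the log2 ratio of 0.048 to 0.088; these measure spot noise within an array and say nothing of the spread between mice.

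Clusterin was the member that differed most between the hearts. Its normalized log2 signal was 12.94 in the knockout CR heart and 12.16 in the knockout AL heart, against 12.10 in the control CR heart and 11.68 in the control AL heart. The knockout CR heart stood above the other 3, and the knockout AL and control CR hearts lay close together. CR over AL was 0.78 on the log2 scale (1.72-fold) in knockout hearts and 0.43 (1.34-fold) in control hearts. Of 12144 genes compared in knockout hearts 43 had a value at least as high as that of Clu, and of 12659 in control hearts 320 did. The knockout heart exceeded the control heart by 0.84 (1.79-fold) under CR and by 0.49 (1.40-fold) under AL, and 48 of 11960 and 502 of 12786 genes were at least as high there. The restriction response of Clu was 0.36 larger in knockout than in control hearts. In the raw scans its spot read 7588 scanner units in the knockout CR heart and 5139 in the control CR heart (Cy3), and 3807 in the knockout AL heart and 3311 in the control AL heart (Cy5). Values of the same dye therefore stood in the same order before any normalization.

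The spot of Clu had an unusual surround. On the control array the brightness around it was 96.0% of the spot in the CR channel and 96.2% in the AL channel, where the medians over 5851 genes of at least median signal were 69.6% and 57.0%. On the knockout array it was 51.5% in the CR channel and 70.7% in the AL channel, against medians of 71.6% and 62.5%. The normalization used here does not subtract the surround. When it was subtracted, the knockout minus control value of Clu was 4.06 under CR and 3.04 under AL, and CR over AL was 1.43 in knockout and 0.42 in control hearts. The direction of all these values was the same in both treatments of the surround, whereas the size of the genotype difference was not settled. With the channels scaled to equal medians in place of Aquantile normalization, which equalizes the distribution of average signal between arrays, the genotype differences were 0.58 under CR and 0.22 under AL. Subtraction of the blank mean in place of normexp was an alternative chosen after seeing the data. It gave genotype differences of 0.79 under CR and 0.16 under AL.

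**Figure D1:**
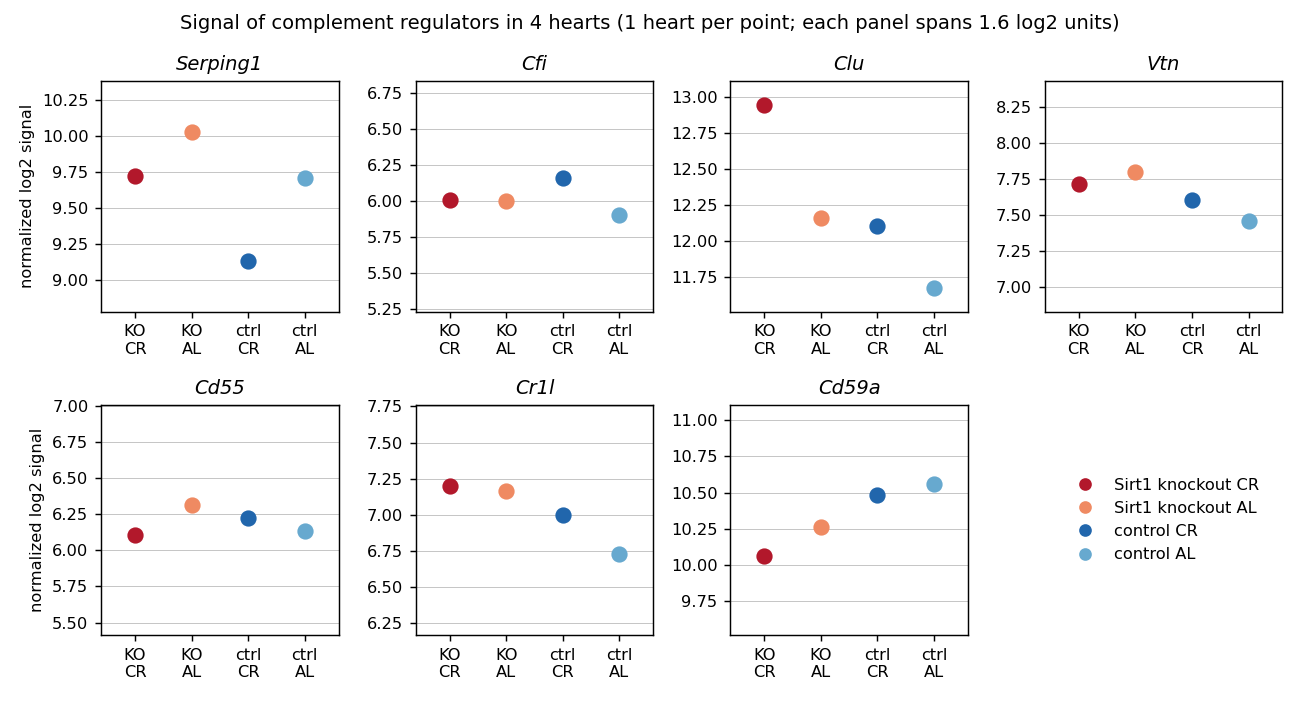
Normalized log2 signal (vertical axes) of the 7 complement regulators in each of the 4 hearts, with 1 heart per point and an equal span of log2 units in every panel. Clu runs between 11.68 and 12.94 and Serping1 between 9.13 and 10.03, while the other 5 genes span at most 0.50.

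**Figure D2:**
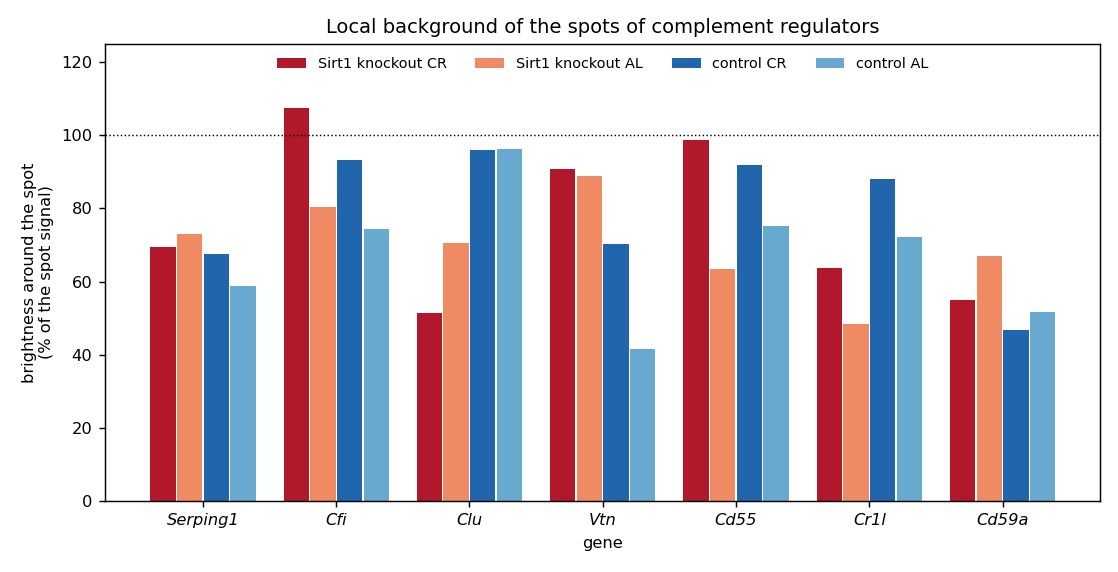
Brightness around the spot as a percentage of the spot signal for each gene, with 1 bar per heart. The bars of Clu stand at 96.0% and 96.2% on the control array and at 51.5% and 70.7% on the knockout array, and the bar of Cfi in the knockout CR heart stands at 107%, with a surround brighter than the spot.

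Serping1 ran opposite to clusterin under restriction. Its log2 signals were 9.72 in the knockout CR heart and 10.03 in the knockout AL heart, against 9.13 in the control CR heart and 9.70 in the control AL heart. The control CR heart was the lowest by a clear margin, and the knockout CR and control AL hearts were almost level. CR over AL was -0.31 in knockout hearts (1.24-fold lower) and -0.57 in control hearts (1.49-fold lower), just short of 1.5-fold. In control hearts 48 of 12659 genes had a value as low or lower, and in knockout hearts 546 of 12144. The knockout heart was higher by 0.59 (1.51-fold) under CR and by 0.32 (1.25-fold) under AL. The restriction response was therefore 0.27 less negative in knockout hearts. With the local background subtracted, CR over AL stayed at -0.60 in control hearts and was -0.06 in knockout hearts, and knockout over control was 0.44 under CR and -0.10 under AL. The authors' deposited table gives log2 ratios of CR over AL of -0.32 for knockout and -0.71 for control hearts.

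Vitronectin differed less between the hearts. Its log2 signals were 7.71 in the knockout CR heart and 7.80 in the knockout AL heart, against 7.60 in the control CR heart and 7.46 in the control AL heart. Both knockout hearts lay above both control hearts, by 0.11 under CR and 0.33 under AL, and CR over AL was -0.08 in knockout and 0.14 in control hearts. The brightness around the spot was 90.9% and 88.8% of the spot in the knockout CR and AL hearts and 70.3% and 41.4% in the control CR and AL hearts. With this surround subtracted the genotype order turned, to -0.53 under CR and -0.79 under AL, so no direction can be given for Vtn.

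Factor I was close to the limit of detection. Its spot exceeded the mean of the blanks by 8.92 and 7.30 scanner units in the knockout CR and AL hearts and by 18.4 and 3.28 units in the control CR and AL hearts. In the control AL heart it passed the detection threshold by 0.93 units. The log2 signals were 6.00 in both knockout hearts, against 6.16 in the control CR heart and 5.90 in the control AL heart, which gives CR over AL values of 0.01 in knockout and 0.26 in control hearts. The authors' deposited table lists Cfi with log2 ratios of 0.15 in knockout and 2.13 in control hearts. The deposited control ratio thus rests on 3.28 units above the blanks in the AL channel, and with a normexp offset of 0 the ratio was 1.21. With the local background in the detection rule, Cfi was detected in none of the 4 hearts.

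On the membrane side, Cr1l and Cd59a were well above the blanks and stood in opposite order between the genotypes. Log2 signals of Cr1l were 7.196 in the knockout CR heart and 7.167 in the knockout AL heart, against 6.998 in the control CR heart and 6.728 in the control AL heart. Cd59a had 10.06 in the knockout CR heart and 10.26 in the knockout AL heart, against 10.49 in the control CR heart and 10.56 in the control AL heart. Both knockout values of Cr1l lay above both control values, and both of Cd59a lay below them. The values of a genotype under CR and AL were read on the same spot of 1 array, so their agreement is not a second observation. The share of all genes ordered this way was not counted. Knockout over control was 0.20 under CR and 0.44 under AL for Cr1l, and -0.43 (1.34-fold lower) under CR and -0.30 (1.23-fold lower) under AL for Cd59a. These 4 values kept their sign in each alternative computed, between 0.16 and 0.78 for Cr1l and between -0.60 and -0.29 for Cd59a. CR over AL was 0.03 in knockout and 0.27 in control hearts for Cr1l, and -0.20 in knockout and -0.07 in control hearts for Cd59a. With the local background subtracted these became 0.02 in knockout and -0.02 in control hearts for Cr1l, and 0.23 and 0.19 for Cd59a, so neither had a settled direction under restriction. Cd59a has a close paralogue, Cd59b, without a named probe here, and the probe sequence is not known, so a shared signal was not tested.

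The stretches of 250 bases before the start of Cd59a and Cr1l are shown because these members differed between the genotypes in opposite directions under each treatment of the data. They come from RefSeq (GRCm38.p6), which lists promoters for 4 of the 7 genes, and lie at chr2:104095551-104095800 on the plus strand and at chr1:195131571-195131820 on the minus strand.
Cd59a: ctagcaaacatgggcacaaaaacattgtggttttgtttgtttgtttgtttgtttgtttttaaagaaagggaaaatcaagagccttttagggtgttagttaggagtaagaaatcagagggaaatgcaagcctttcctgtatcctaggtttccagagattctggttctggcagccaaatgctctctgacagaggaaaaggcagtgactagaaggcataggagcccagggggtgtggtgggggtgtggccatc
Cr1l: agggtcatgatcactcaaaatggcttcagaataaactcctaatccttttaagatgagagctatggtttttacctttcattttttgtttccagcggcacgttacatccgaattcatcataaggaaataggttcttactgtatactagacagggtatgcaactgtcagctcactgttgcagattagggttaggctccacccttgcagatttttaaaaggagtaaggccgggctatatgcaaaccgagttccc
Neither stretch holds the letters TATAAA, the usual TATA box, on either strand, and 12.4% of 32851 promoter stretches of this length do. Nor do they hold CCAAT, which 33.8% hold. The letters GGGCGG of a GC box, which 32.7% hold, are also not in either window. No letters are in capitals because no motif was found. The G and C content was 44.8% in Cd59a and 41.6% in Cr1l, with a median of 52.4% over all stretches.

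Cd55 was dim as well. Its spot exceeded the blank mean by 13.2 and 22.4 scanner units in the knockout CR and AL hearts and by 22.6 and 13.3 units in the control CR and AL hearts. The log2 signals were 6.10 and 6.32 in the knockout CR and AL hearts and 6.23 and 6.13 in the control CR and AL hearts. CR over AL was therefore -0.21 in knockout and 0.09 in control hearts, and knockout over control was -0.12 under CR and 0.18 under AL. In the authors' deposited table the log2 ratios of Cd55 are -0.90 in knockout and 0.41 in control hearts. The hearts overlapped between genotypes and between diets, and the size of the values depended on how the blank level was handled.

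**Figure D3:**
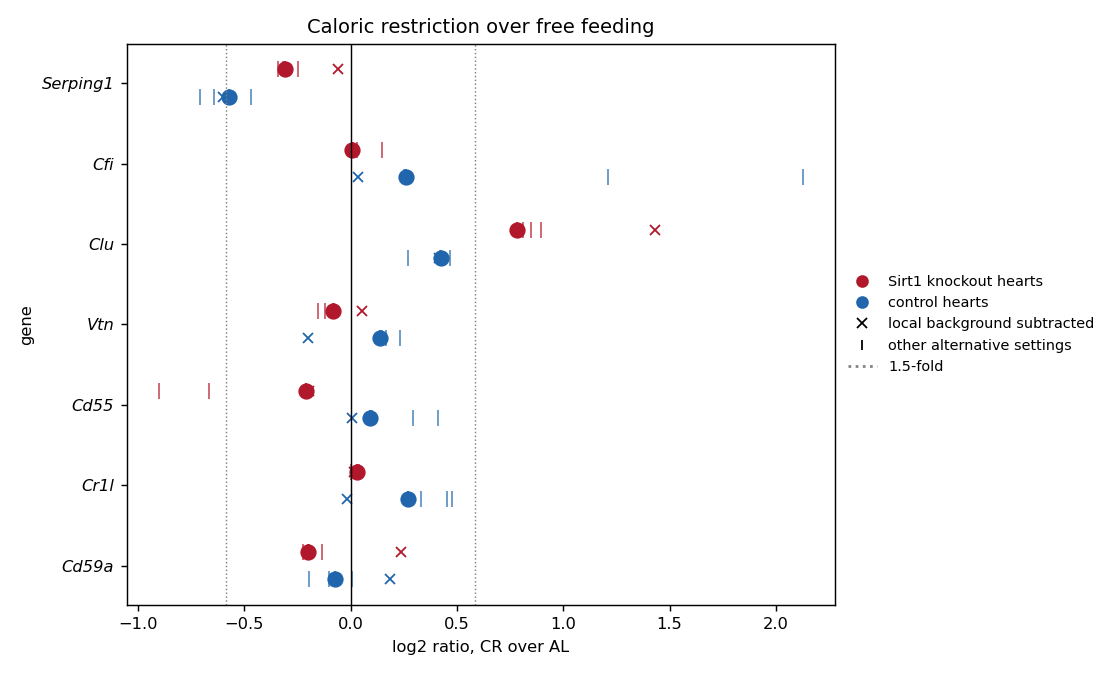
Log2 ratio of CR over AL (horizontal axis) for each gene in knockout and control hearts, with filled circles for the normalization described here, crosses for subtraction of the local background and ticks for the other alternatives. Clu lies above 0 and Serping1 below 0 for both genotypes in every setting shown, and Cfi and Cd55 spread widely.

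**Figure D4:**
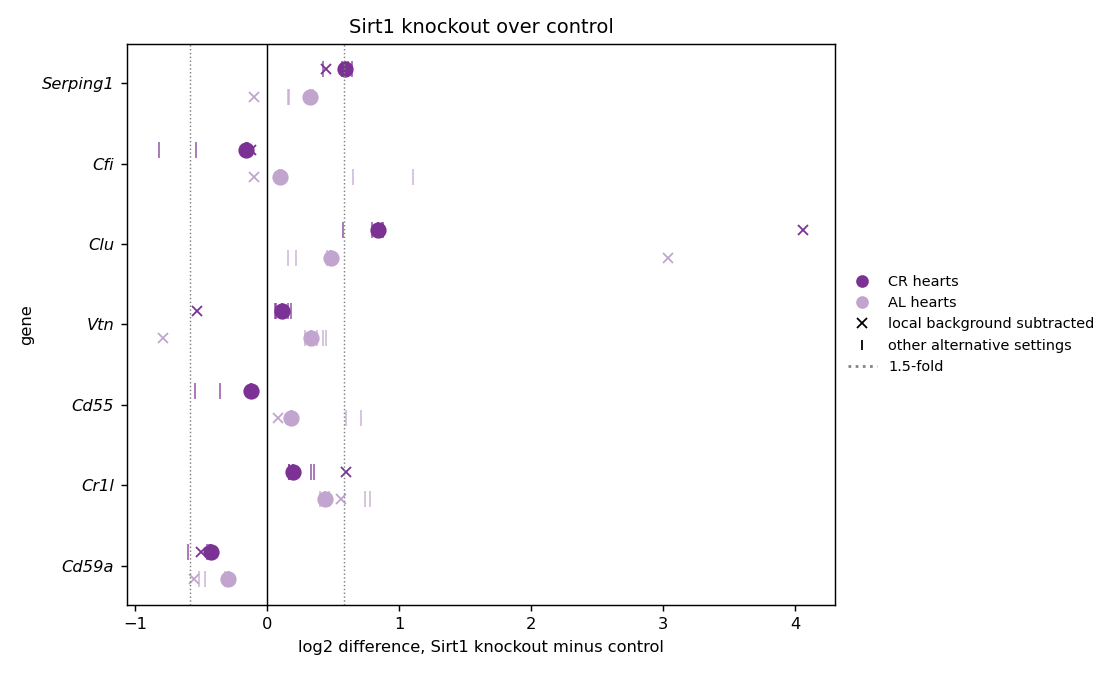
Log2 difference of knockout minus control (horizontal axis) for each gene under CR and under AL, with the same symbols. Cd59a lies below 0 and Clu and Cr1l above 0 for both diets in every setting shown, while Vtn changes side when the local background is subtracted.

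Read as a list, the regulators did not move one way under restriction. In knockout hearts CR over AL was above 0 for 3 and below 0 for 4 of the 7 (median -0.08), and 1 of 7, Clu, was at least 1.5-fold apart, where 1.53% of all 12144 genes were (0.774% higher and 0.758% lower). In control hearts 5 were above and 2 below 0 (median 0.14), and 0 of 7 reached 1.5-fold, beside 1.16% of 12659 genes (0.822% higher and 0.340% lower). When the control response was subtracted from the knockout response, 2 were above and 5 below 0 (median -0.22), and 0 of 7 reached 1.5-fold, beside 0.914% of 11701 genes (0.393% higher and 0.521% lower). The 2 above 0 were Clu (0.36) and Serping1 (0.27), and the 5 below lay between -0.30 (Cd55) and -0.13 (Cd59a). Subtracting the local background turned this count to 5 above and 2, Cfi and Cd55, below 0 (median 0.05). Between the genotypes under CR, 4 were above and 3 below 0 (median 0.11), with Clu and Serping1, 2 of 7, at least 1.5-fold higher, beside 2.53% of 11960 genes in either direction (1.45% higher and 1.09% lower). Under AL, 6 were above and 1 below 0 (median 0.32), and 0 of 7 reached 1.5-fold, beside 4.36% of 12786 genes (2.58% higher and 1.78% lower). The counts between genotypes also turned with the local background subtracted, to 3 above and 4 below 0 under CR (median -0.12) and 3 above and 4 below under AL (median -0.10). For CR over AL they became 5 above and 2 below in knockout hearts (median 0.02) and 4 above and 3 below in control hearts (median 0.01). The medians over all genes in these comparisons lay between -0.003 and 0.009. The 2 genotype comparisons and the 2 restriction comparisons use the same 4 hearts, so their values are not independent of each other.

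Markers of the cells that could supply these RNAs also differed. Because whole hearts were measured, fewer cells of a type and less RNA per cell cannot be told apart. The summed signal of 11 fibroblast markers (11 of 11 detected in all hearts) was 3557 in the knockout CR heart and 4415 in the knockout AL heart, against 3163 in the control CR heart and 4004 in the control AL heart. That of 9 macrophage markers, of 11 listed, was 877 and 1080 in the knockout CR and AL hearts and 869 and 1045 in the control CR and AL hearts. Both sums were lower with CR in each genotype, as Serping1 was. They were higher in the knockout hearts at each diet, by little for macrophages. Of 11 fibroblast markers 10 were higher in the knockout at each diet, and of macrophage markers 7 of 9 under CR and 9 of 10 under AL. Of all genes 51.0% were higher under CR and 52.6% under AL. The fibroblast marker Col3a1 was at -1.09 under CR and 0.35 under AL. The brightest fibroblast marker, Dcn, was at 0.22 under CR and -0.20 under AL, and the macrophage marker Tyrobp at -0.49 and -0.40. With the local background subtracted Dcn was at -0.44 and -1.11, and Tyrobp at 0.09 and 0.10. In that setting Col3a1 was at -1.85 and -0.92 and Fn1 at -0.48 and -0.67, whereas others, such as Lum at 1.49 and 1.76, stayed higher. The count of fibroblast markers higher in the knockout thus depended on the treatment of the surround. The 8 smooth muscle and pericyte markers (8 of 8 detected) summed to 6135 and 4242 in the knockout CR and AL hearts and to 4721 and 3143 in the control CR and AL hearts, so that the sum, like Clu, was higher with CR in each genotype and higher in the knockout hearts at each diet. Most of that sum was desmin (Des), an intermediate filament that cardiomyocytes also carry, with log2 signals of 12.12 and 11.30 in the knockout CR and AL hearts and 11.67 and 10.83 in the control CR and AL hearts. Over the 8 single markers CR over AL was above 0 for 3 in knockout and 7 in control hearts, with medians of -0.03 and 0.07. The sum of 9 endothelial markers was also higher with CR in each genotype and higher in the knockout hearts at each diet. It was 2682 and 2643 in the knockout CR and AL hearts and 2184 and 2028 in the control CR and AL hearts. The brightest of them was Flt1, with log2 signals of 10.51 and 10.23 in the knockout CR and AL hearts and 9.79 and 9.24 in the control CR and AL hearts. Over the 9 single markers CR over AL was above 0 for 3 in knockout and 6 in control hearts. Knockout over control was above 0 for 3 under CR and 4 under AL, with medians of -0.07 and -0.007, so most single markers did not follow the sum between genotypes. Of 8 liver markers 4 were detected in all hearts and summed to 408 and 370 in the knockout CR and AL hearts and to 346 and 375 in the control CR and AL hearts. Albumin (Alb) was detected in 2 and Apoa1 in 0 of the 4 hearts. The 10 of 12 cardiomyocyte markers detected in all hearts summed to 181097 and 208733 in the knockout CR and AL hearts. In the control CR and AL hearts they summed to 175272 and 185575. CR over AL was above 0 for 6 of these 10 in each genotype, and knockout over control for 6 under CR and 7 under AL. Of all genes 50.1% to 52.6% were above 0 in these comparisons. The part of these cell types in the values of the regulators was not tested.

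Among the other complement genes, those at least 1.5-fold lower with CR were components or receptors. Of 7 other regulators compared in control hearts and 8 in knockout hearts, 0 reached 1.5-fold in either, beside 1.16% and 1.53% of all genes. The furthest was properdin (Cfp), which stabilizes the C3 convertase of the alternative pathway, at -0.34 in knockout and -0.28 in control hearts. In the classical and lectin pathways 3 of 12 genes were at least 1.5-fold lower with CR in knockout hearts, beside 0.758% of all genes. In control hearts 0 of 13 were, beside 0.340%. The 3 were C1qa, C1qb and C1qc, the chains of the recognition protein that carries the proteases Serping1 blocks. They were at -0.79, -1.05 and -0.67 in knockout and -0.33, -0.58 and -0.32 in control hearts. C3 was at -0.14 in knockout and -0.92 in control hearts, and of the 3 genes of the alternative pathway it alone reached 1.5-fold in either. Of the receptors Cd93 was at -0.73 and C3ar1, the receptor of the C3a fragment, at -0.58 in knockout hearts, against -0.19 and -0.05 in control hearts. Several of these signs turned with the local background subtracted: C3 was then at 0.53 and Cd93 at 0.07 in knockout hearts, and C1qc was at 0.05 and C3ar1 at 0.02 in control hearts. Genes of the terminal pathway, whose product Clu, Vtn and Cd59a restrain, were dim: C8a was the only one of 5 with a probe that was detected in all hearts, with log2 signals of 5.99 and 6.05 in the knockout CR and AL hearts and 6.06 in both control hearts. As the study is known to have picked complement genes from these arrays, these counts are not independent evidence.

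**Figure D5:**
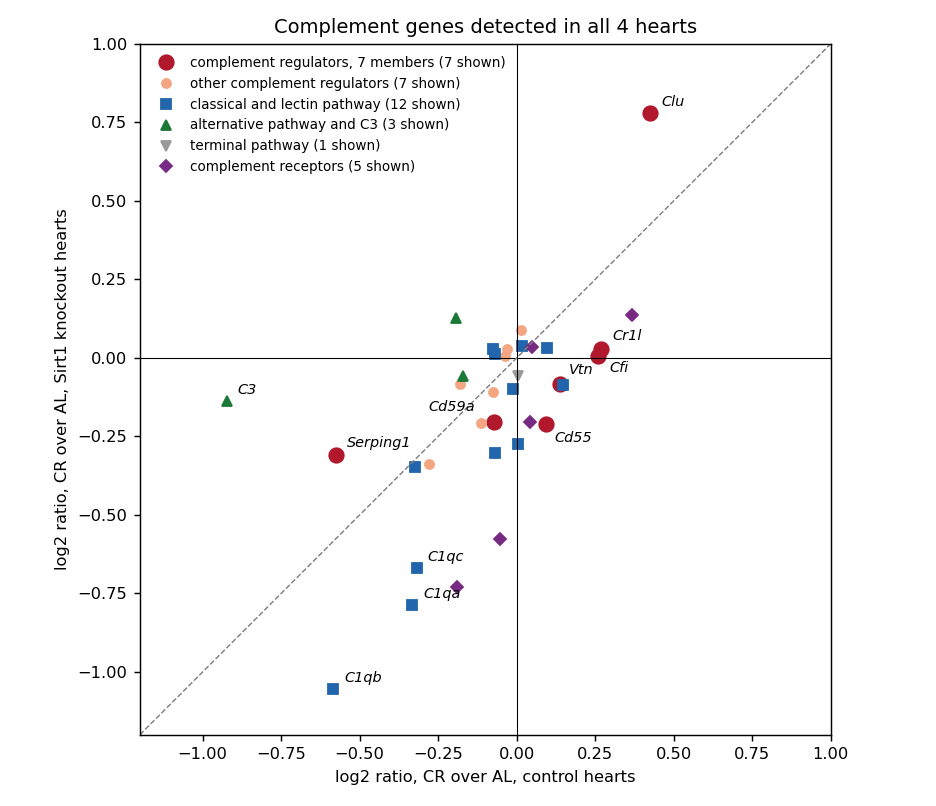
Log2 ratio of CR over AL in control hearts (horizontal axis) against knockout hearts (vertical axis) for the complement genes detected in all 4 hearts, with 1 point per gene and the dashed line marking equal ratios. Clu is the highest on both axes, and the receptor C1qbp comes near it on the control axis (0.37) but not on the knockout axis (0.14). Serping1 lies at the lower left between C3 and the C1q chains, and the other 5 members within 0.27 of 0 on both axes.

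Among 5754 genes detected in all hearts, of at least median signal and with a proper symbol, the 3 whose 4 centred log2 signals lay nearest to those of Clu by Euclidean distance over the 4 hearts were Herpud1, a protein of endoplasmic reticulum quality control (distance 0.12), Xdh, xanthine dehydrogenase (0.13), and Hbp1, a transcriptional repressor (0.16). Herpud1 was at 0.92 and 0.51 for CR over AL in knockout and control hearts. For Serping1 the nearest were H2bc14 (0.11) and H2ac18 (0.13), histone genes of multicopy families whose probes may share signal, and Nfs1, a cysteine desulfurase of iron-sulfur cluster assembly (0.13). Nfs1 was at -0.33 and -0.40 for CR over AL in knockout and control hearts. With 4 values per gene many genes lie close by, and the distances are a description only.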

How the data were processed

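Arrays of 4 hearts in 2 colours were analysed. Per the file headers, each deposited scanner file gives raw intensity: a median for every spot and for the area around it, in both colours. Log2 ratios come from the authors' deposited table. They were rebuilt as the log2 ratio (CR over AL) of blank-subtracted spot signals minus a constant (0.144 for the knockout and 0.359 for the control array), within 0.001 for 16554 of 16555 and 17404 of 17405 values, so scale and direction are known. The medians of its columns were 8.079e-05 (knockout) and -2.885e-06 (control). No source used here gives the scanner software or a genome build.

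Spot intensities were corrected by normexp in limma 3.58.1 (R 4.3.3) with an offset of 50 and no subtraction of local background. Loess within arrays gave control and marked spots weight 0; separate channels were taken after Aquantile. The ratios within arrays were tested on simulated arrays. That test did not use the local background and did not check the values between genotypes. Local background was left in because it followed spot brightness (Spearman correlations of 0.875 to 0.944), and its subtraction is an alternative. Of 23473 probes 16631 had 1 gene symbol and 6842 had none; 3947 symbols were updated through GRCm38.p6 synonyms and 62 did not match. The brightest probe stood for a gene. A gene was compared where detected in all channels of the comparison, and 1.5-fold counted as apart. The number of arrays limits the precision.

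The members and lists were chosen with earlier results of these data known. Named were all 7 members, up to 3 genes of each list with the largest values, and the 3 nearest patterns to Clu and Serping1. Marker genes beyond that rule (sarcomere proteins, Alb, Apoa1, Des, C8a) were chosen after their values were seen. Alternatives were local background subtraction, normexp offset 0, median centring, no detection filter, the mean of probes, the deposited ratios, median scaling and a 2-fold threshold; blank subtraction for the genotype comparisons was added after the data were seen.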

Additional observations from a re-analysis of the deposited data

Results flagged for a closer look

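In Vtn and Cd55 the CR over AL value had opposite signs in the genotypes. The difference was not tested. For Vtn it was -0.08 in knockout and 0.14 in control hearts, a difference of -0.22. For Cd55 it was -0.21 in knockout and 0.09 in control hearts, a difference of -0.30. With the local background subtracted Vtn was at 0.05 in knockout and -0.20 in control hearts, so its signs were opposite in the other order, and Cd55 was at -0.20 and 0.01.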

How the results depend on the processing

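No paired analysis was possible because each condition has 1 heart. Each member has 1 probe that was detected in every heart, so leaving out the detection filter and averaging probes change no member value by construction. Of the 35 member values 23 had the same sign in every alternative. Of 224 values recomputed under the alternatives, which include those that could not change, 210 kept their sign. Of the 14 that did not, 12 came with the local background subtracted, 1 with median centring (Cd59a at 0.01 in control hearts) and 1 in the authors' deposited ratios (Cd59a at 0.001 for the difference of responses). The number of members at least 1.5-fold apart for CR over AL in knockout hearts was 1, but 2 with a normexp offset of 0 and in the deposited ratios, where Cd55 joined Clu, and 0 at a 2-fold threshold. In control hearts it was 0, but 1 with the local background subtracted (Serping1), and 2 with an offset of 0 and in the deposited ratios (Serping1 and Cfi). For knockout over control under CR it was 2, Serping1 and Clu, but 1 with median centring (Clu), 1 with median scaling (Cd59a), 3 with the blank mean subtracted (Serping1, Clu and Cfi) and 0 at 2-fold. It was also 2 with the local background subtracted, but these were Clu and Cr1l. Under AL it was 0, but 2 with the local background subtracted (Clu and Vtn), and 3 with an offset of 0 and with the blank mean subtracted (Cfi, Cd55 and Cr1l). For the difference of responses it was 0, but 1 with the local background subtracted (Clu), and 2 with an offset of 0 and in the deposited ratios (Cfi and Cd55). These settings also moved the share of all genes past 1.5-fold, to 6.06% with an offset of 0 and 13.3% in the deposited ratios for CR over AL in control hearts, beside 1.16%. For knockout over control under AL the share was 19.2% with the local background subtracted, 12.2% with an offset of 0 and 20.6% with the blank mean subtracted, beside 4.36%. Under CR it was 21.5%, 10.9% and 17.6%, beside 2.53%. With the local background in the detection rule 5 of the 7 members, all but Cfi and Cd55, were detected in every heart.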

Other observations

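Proteins that Serping1 and Vtn act on outside complement, those of the contact system and of fibrinolysis, were mostly dim in these hearts: 6 of 11 genes with a probe were detected in all 4. None of the 7 compared in knockout hearts or of the 6 compared in control hearts reached 1.5-fold for CR over AL. Of all genes 1.53% did in knockout and 1.16% in control hearts, so these counts say little of the list. Tissue plasminogen activator (Plat) had log2 signals of 6.77 and 6.99 in the knockout CR and AL hearts and 6.49 and 6.64 in the control CR and AL hearts. CR over AL was -0.23 in knockout and -0.15 in control hearts, and knockout over control was 0.27 under CR and 0.35 under AL. With the local background subtracted the genotype values of Plat were -0.07 under CR and 0.18 under AL, so the direction under CR turned.

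Receptors that bind vitronectin or clusterin did not reach 1.5-fold in any of the 5 comparisons without subtraction of the local background, over 9 or 10 genes compared in each. Of all genes 0.914% to 4.36% did, so a count of 0 says little in a list this short. The VLDL receptor (Vldlr), a lipoprotein receptor of muscle, was lower in the knockout hearts by log2 differences of -0.48 under CR and -0.27 under AL. The integrin chain Itgb5 was at -0.15 and -0.30. With the local background subtracted both passed 1.5-fold, with Vldlr at -1.63 and -1.24 and Itgb5 at -1.43 and -1.17. In that setting 21.5% of all genes under CR and 19.2% under AL were past 1.5-fold.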
